A study of Mus musculus with 6 samples.

Results

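Collagens are the structural proteins of the extracellular matrix, and 36 collagen genes were measured in mouse skeletal muscle with and without TFEB, among 12393 genes that the array measured. The members were all genes whose annotated symbol is Col, a number, the letter a and a number. They were read by 58 probe sets, and for each gene the probe set with the highest mean over the 6 arrays was used. The RefSeq gene table lists 44 mouse collagen genes, so 8 of them had no probe set that named them alone. Muscle RNA came from 3 wild-type (WT) and 3 TFEB KO mice, 1 Affymetrix array per mouse, all C57BL/6 and 1 month old. In the knockout, Tcfeb, the gene of the transcription factor TFEB, was floxed and deleted by a Cre driven by the MLC1f promoter, which is active in muscle fibers, so other cells of the muscle kept the gene. No source used here names the muscle.

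A collagen is built from 3 chains that wind into a helix, and each chain has its own gene. Fibrillar collagens form the fibers that carry load, with type I and type III the main ones of muscle connective tissue. Basement membrane collagens form the sheet around each muscle fiber and vessel, fibril-associated collagens with interrupted helices (FACIT) sit on the surface of fibrils, and the others are microfibrillar, network-forming, anchoring or membrane-bound. In muscle most collagen is made by the fibroblasts between the fibers, and tendon and cartilage have collagens of their own.

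Array values are log2 intensities, and a difference of 1 is a factor of 2. Differences are given as TFEB KO minus WT, and the limma test with Benjamini-Hochberg adjustment over 22626 probe sets called a gene at an adjusted p under 0.05. Tfeb itself read 8.61, 8.55 and 8.96 on the WT arrays and 7.10, 7.23 and 7.04 on the TFEB KO arrays, a difference of -1.58 (limma adjusted p = 0.0079). The 15 skeletal muscle fiber markers had mean levels of 12.95 to 14.91, and their median difference was 0.0020. Single fiber markers ran from -0.57 to 0.15, and 0 were called in either direction. In 5 of them (33.3%) every TFEB KO array read below every WT array, and in 2 (13.3%) every one read above. Over all genes these shares were 12.9% and 10.8%. Arrays correlated at 0.992 to 0.997 within a group and at 0.989 to 0.993 between groups, across probe sets. The arrays are of separate mice, and their number limits the precision.

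Of the 36 collagen genes, 2 passed the test. Col9a1 and Col11a2, chains of 2 collagens best known from cartilage, were lower in TFEB KO muscle. These are 5.56% of the 36 collagen genes, beside 0.702% of all 12393 genes called lower. By limma 0 collagen genes were called higher, beside 0.871% of all genes. The Student t-test that the methods name for the whole study, called the methods' t-test here, also called 0 higher with or without adjustment. The methods also name ANOVA, and the paper's main text does not say which test was used on the arrays. At an unadjusted limma p under 0.05, 9 collagen genes were lower (25%) and 0 were higher, beside 8.66% and 8.49% of all genes. In 8 members (22.2%) every TFEB KO array read below every WT array, and in 0 members every TFEB KO array read above, where these shares were 12.9% and 10.8% of all genes. The groups overlapped in the other 28 members. The difference was below 0 in 26 members and above 0 in 10, so 72.2% lay below 0, against 53.4% of all genes. The median difference of the members was -0.11, that of all genes was -0.014, and single members ran from -1.12 to 0.44. The median of the members was -0.038 without TFEB KO 3 and -0.19 without TFEB KO 1, and the family as a whole was not tested against other genes. In this bulk tissue, fewer cells of a type and less RNA per cell cannot be told apart.

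**Figure D1:**
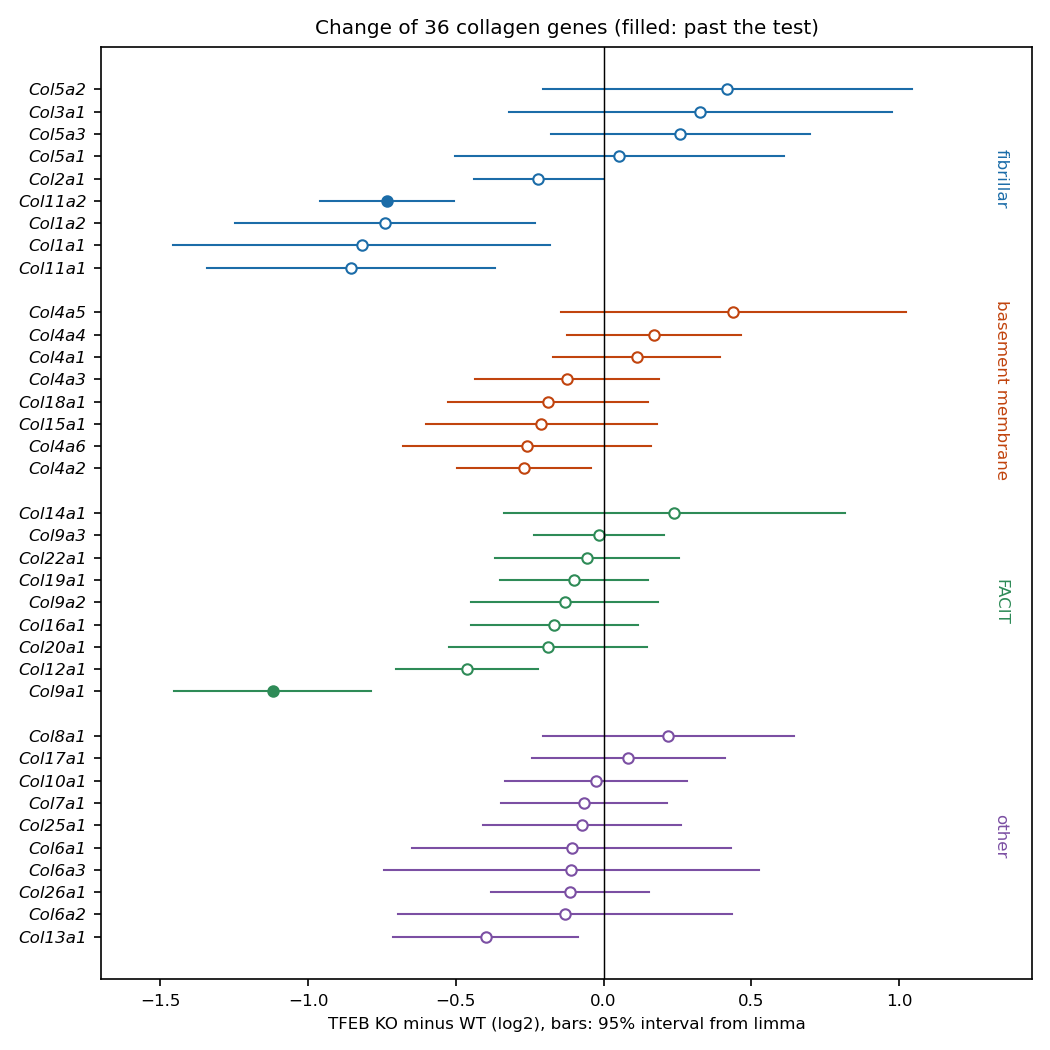
TFEB KO minus WT log2 difference (horizontal axis) of each of the 36 collagen genes, by class, with the 95% interval of the limma fit as a bar and filled marks for genes past the test. Col9a1 at -1.12 and Col11a2 at -0.73 are the 2 members past the test, and the median of the family is -0.11.

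Over the family the arrays of the knockout group were not alike. The median member deviated from its WT mean by 0.062, 0.039 and -0.091 on the WT arrays and by -0.024, -0.11 and -0.29 on TFEB KO arrays 1, 2 and 3. By this median TFEB KO array 3 lay farthest below the WT mean and array 1 closest to it. Single members on array 1 lay far to both sides, from -1.33 for Col9a1 to 1.05 for Col5a2. The median deviations of all genes on TFEB KO arrays 1, 2 and 3 were -0.013, 0.017 and -0.049. By class, the median difference was -0.22 for the 9 fibrillar, -0.16 for the 8 basement membrane, -0.13 for the 9 FACIT and -0.090 for the 10 other collagens. The shares of members below 0 were 55.6%, 62.5%, 88.9% and 80% in the same order. The fibrillar members were split, 5 below 0 and 4 above, and ran from -0.85 to 0.42. Of the 36 members, 15 had a mean level under 6 and are called dim here, Col11a2 among them. Col9a1 lay just above that level, with a mean of 6.06 over the 6 arrays, through its WT arrays alone, since all its TFEB KO arrays were under 6.

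**Figure D2:**
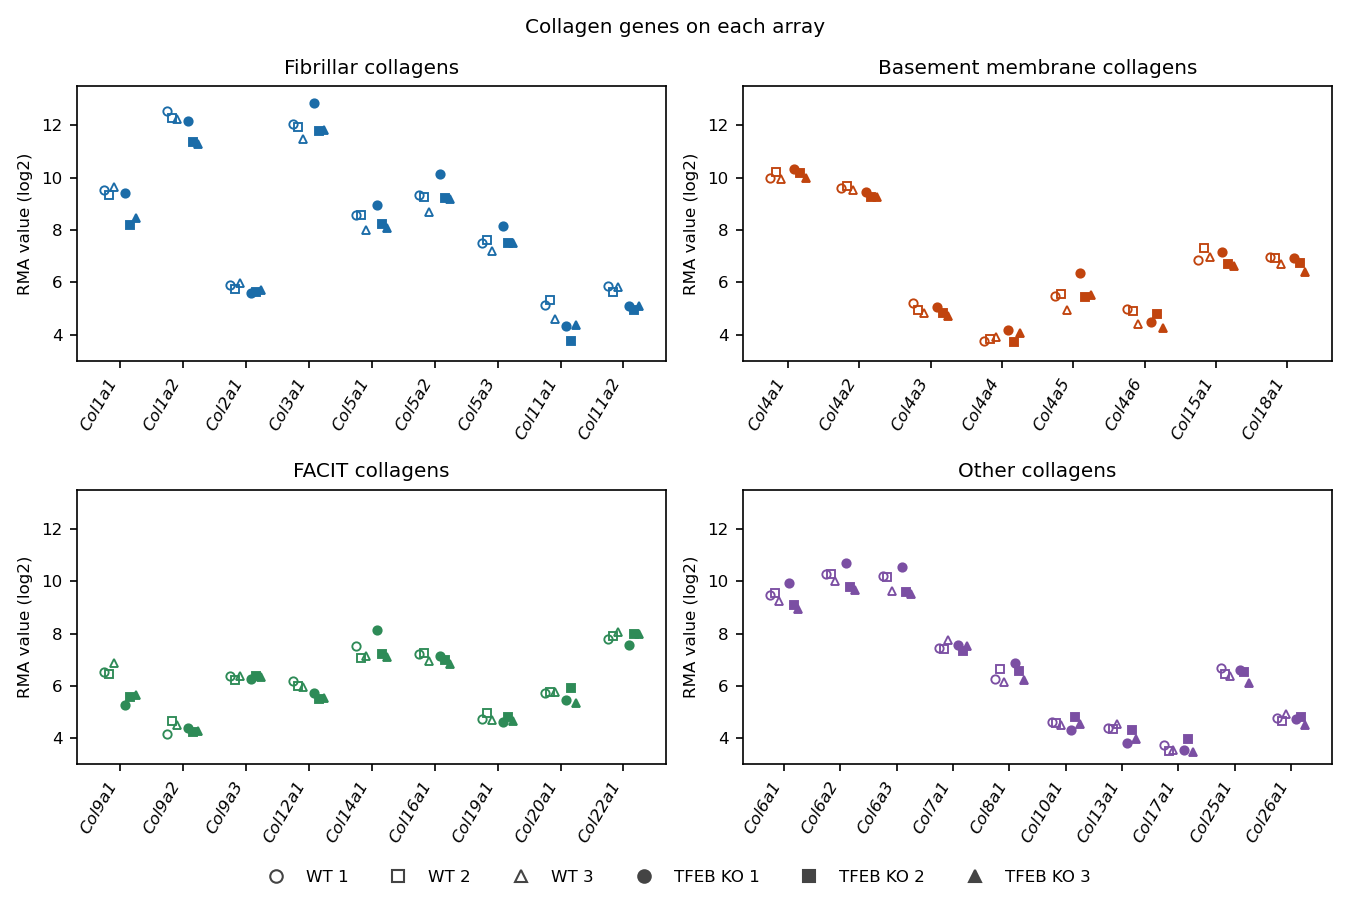
Log2 RMA value (vertical axis) of each of the 36 collagen genes on each of the 6 arrays, in 4 panels by class, with open marks for WT and filled marks for TFEB KO arrays and 1 mark shape per replicate. The TFEB KO arrays of Col9a1 lie at 5.29 to 5.64, below its WT arrays at 6.44 to 6.89, and Col3a1 and Col5a2 are highest on TFEB KO array 1, at 12.84 and 10.14.

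Collagen IX is a FACIT made of chains Col9a1, Col9a2 and Col9a3, and it decorates the type II fibrils of cartilage. Col9a1 read 6.53, 6.44 and 6.89 on the WT arrays and 5.29, 5.58 and 5.64 on the TFEB KO arrays. Every TFEB KO array lay below every WT array. The difference was -1.12 (SE 0.146, 95% interval -1.45 to -0.79, limma adjusted p = 0.017), a level 2.17-fold lower. The dimmer probe set of Col9a1 differed by -0.44 (limma adjusted p = 0.30), and its 5.91, 5.64 and 5.70 on WT arrays overlapped its 5.44, 5.65 and 4.84 on TFEB KO arrays. Col9a2 read 4.15, 4.66 and 4.51 against 4.41, 4.23 and 4.28, a difference of -0.13 with a 95% interval of -0.45 to 0.19. Col9a3 read 6.39, 6.22 and 6.40 against 6.25, 6.39 and 6.32, a difference of -0.016 with a 95% interval of -0.24 to 0.20. Both partner chains overlapped between the groups and neither passed the test, Col9a2 being dim.

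Collagen XI is a minor fibrillar collagen of chains Col11a1, Col11a2 and, in cartilage, the Col2a1 product, and it lies inside the type II fibrils that Col2a1 encodes. Col11a2 read 5.86, 5.65 and 5.84 in WT and 5.10, 4.96 and 5.09 in TFEB KO muscle. The groups did not overlap, and the difference was -0.73 (SE 0.099, 95% interval -0.96 to -0.51, limma adjusted p = 0.020), a level 1.66-fold lower from a single, dim probe set. Col11a1, which is also made in tendon, read 5.14, 5.31 and 4.62 in WT and 4.35, 3.78 and 4.38 in TFEB KO muscle. Its difference was -0.85 (SE 0.213, 95% interval -1.34 to -0.37) and did not pass the test (limma adjusted p = 0.094). The dimmer Col11a1 probe set read 5.00, 4.73 and 4.86 against 4.26, 3.97 and 4.05, a difference of -0.77 that did pass (limma adjusted p = 0.025). Both probe sets of Col11a1 were dim and had every TFEB KO array below every WT array. Col2a1, the main fibrillar chain of cartilage, read 5.90, 5.76 and 5.96 against 5.59, 5.65 and 5.72, a difference of -0.22 (limma adjusted p = 0.28) without overlap.

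Grouped after their values were seen, the 6 chains of types II, IX and XI all lay below 0, with a median difference of -0.48. In 4 of them (66.7%) the groups did not overlap, and 4 of the 6 were dim. Over all genes 53.4% lay below 0, and in 12.9% every TFEB KO array was below every WT array. As the values led to the grouping, these counts are no test of it. Both Col9a1 and Col11a2 depended on the test and on which arrays were fitted. The methods' t-test after adjustment passed neither (adjusted p = 0.17 for Col9a1 and 0.15 for Col11a2). With 1 array left out in turn, Col9a1 passed in 4 of 6 fits, at -1.21 to -0.98, and its adjusted p was 0.072 without WT 1 and 0.060 without TFEB KO 2. Col11a2 passed in 2 of 6 fits, at -0.80 to -0.69, and its adjusted p was 0.090 without WT 1, 0.069 without WT 3, 0.067 without TFEB KO 2 and 0.0504 without TFEB KO 3.

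Some markers of tendon and cartilage also fell. Of 16 listed markers 14 were measured, with a median difference of -0.14. Of these, 3 were called lower (21.4%, beside 0.702% of all genes) and 0 higher. The median marker deviated from its WT mean by -0.0054 to 0.0094 on the WT arrays and by -0.33 to -0.14 on the TFEB KO arrays. Comp, a matrix protein of tendon and cartilage, fell by 1.07 (limma adjusted p = 0.0091), while Fmod, which binds collagen fibrils, fell by 1.37 (0.017) and Tnmd, a membrane protein of tenocytes, fell by 0.49 (0.046). Sox9, the transcription factor that defines chondrocytes, had a mean of 4.89 in WT and 4.98 in TFEB KO muscle, and Acan, the main cartilage proteoglycan, of 5.03 and 5.00, all in the dim range. Of the 14 measured markers 12 lay below 0 and 2 above. At an unadjusted limma p under 0.05, 6 were lower (42.9%) and 1 was higher, beside 8.66% and 8.49% of all genes. Chad, Kera and Cilp2 differed by -1.34, -0.92 and -0.64 without overlap. These 3 did not pass the test (limma adjusted p = 0.0506, 0.055 and 0.061). Prg4 was higher by 0.47 (limma adjusted p = 0.17), and Thbs4 and Scx differed by -0.012 and -0.016. The groups overlapped in Prg4, Thbs4 and Scx. The part of tendon or cartilage tissue in the collagen differences was not tested.

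Type I collagen is the main load-bearing fiber, made of 2 Col1a1 chains and 1 Col1a2 chain. Col1a1 read 9.53, 9.36 and 9.64 in WT and 9.43, 8.19 and 8.44 in TFEB KO muscle. TFEB KO arrays 2 and 3 lay more than a log2 unit below the WT mean, while TFEB KO array 1 lay among the WT arrays. The difference was -0.82 (SE 0.279, 95% interval -1.46 to -0.18, limma adjusted p = 0.19). Col1a2 read 12.55, 12.26 and 12.25 in WT and 12.18, 11.36 and 11.30 in TFEB KO muscle, without overlap, and its difference was -0.74 (SE 0.223, 95% interval -1.25 to -0.23, limma adjusted p = 0.14). Neither chain passed the test, and their dimmer probe sets differed by -0.87 and -0.94, which did not pass either. Without TFEB KO 1, Col1a1 differed by -1.19 (limma adjusted p = 0.011) and Col1a2 by -1.02 (0.016), so 4 members (11.1%) were called lower, these chains with Col9a1 and Col11a2. In that fit 0.702% of all genes were called lower and 1.12% higher. With any other array left out instead, neither type I chain passed. In those fits the limma adjusted p was 0.31 to 0.42 for Col1a1 and 0.21 to 0.40 for Col1a2.

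**Figure D3:**
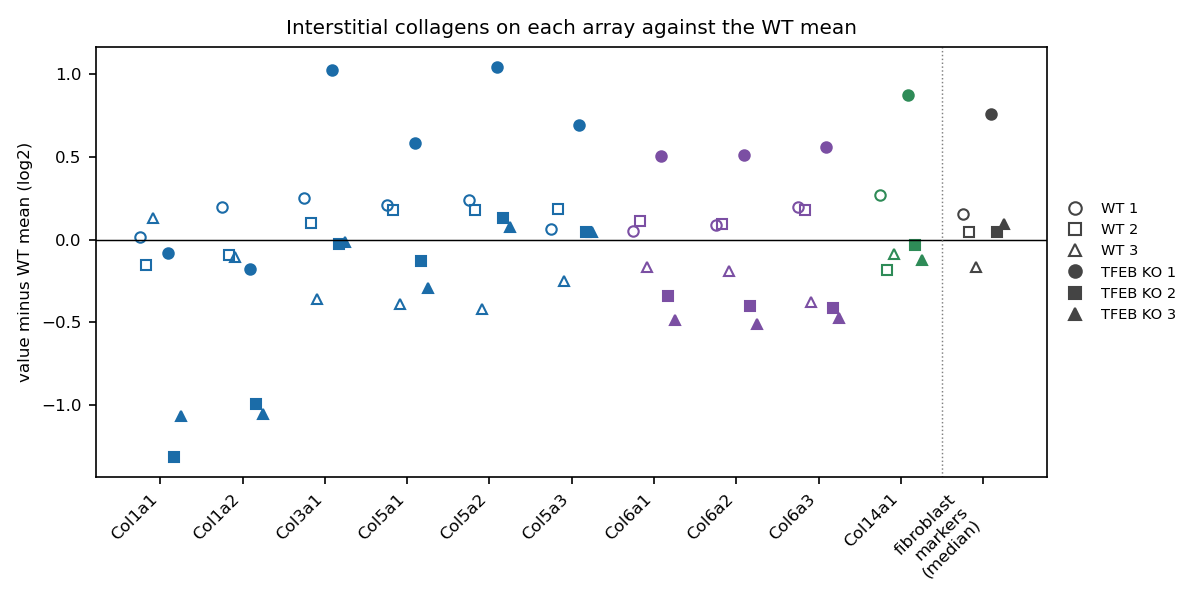
Deviation from the WT mean, in log2 units, of the type I, III, V and VI chains, Col14a1 and the median fibroblast marker, 1 mark per array (open WT, filled TFEB KO). TFEB KO array 1 lies above the WT mean for Col3a1, Col5a2 and the type VI chains and below it, by 0.079 and 0.17, for the type I chains.

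Type III collagen forms thin fibrils together with type I in soft tissue, and its difference had the opposite sign. Col3a1 read 12.07, 11.92 and 11.46 in WT and 12.84, 11.79 and 11.80 in TFEB KO muscle, and the groups overlapped. TFEB KO array 1 was the highest of the 6. The difference was 0.33 (SE 0.283, 95% interval -0.32 to 0.98, limma adjusted p = 0.61), and it was -0.020 without TFEB KO 1. The chains of type V, which starts fibrils and sets their width, had the same highest array. Col5a2 read 9.33, 9.27 and 8.67 against 10.14, 9.22 and 9.17, a difference of 0.42 (95% interval -0.21 to 1.04, limma adjusted p = 0.49). Col5a1 read 8.58, 8.56 and 7.99 against 8.96, 8.25 and 8.08, and Col5a3 read 7.52, 7.64 and 7.20 against 8.14, 7.50 and 7.50. Their differences were 0.053 and 0.26 and neither passed the test.

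Type VI collagen forms beaded microfibrils next to the basement membrane of muscle fibers. Col6a1 read 9.47, 9.53 and 9.25 in WT and 9.92, 9.08 and 8.93 in TFEB KO muscle. Col6a2 read 10.27, 10.27 and 9.99 against 10.69, 9.78 and 9.67, and Col6a3 read 10.20, 10.18 and 9.62 against 10.56, 9.59 and 9.52. In all 3 genes TFEB KO array 1 was above every WT array and TFEB KO arrays 2 and 3 were below every WT array. Their differences of -0.11, -0.13 and -0.11 did not pass the test (limma adjusted p = 0.86, 0.84 and 0.89).

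The 7 chains of types III, V and VI, grouped after their values were seen, had a median deviation of 0.58 on TFEB KO array 1, and of -0.13 and -0.29 on arrays 2 and 3. The median fibroblast marker was also highest on that array. Of 18 listed fibroblast markers 16 were measured and 0 were called in either direction. Their median difference was 0.28, with 13 above 0 and 3 below. In 5 (31.2%) every TFEB KO array was above every WT array, and in 2 (12.5%) every one was below. Over all genes these shares were 10.8% and 12.9%. At an unadjusted limma p under 0.05, 1 was lower and 5 were higher, beside 8.66% and 8.49% of all genes. The median deviation of fibroblast markers was 0.76 on TFEB KO array 1 and 0.048 and 0.096 on arrays 2 and 3. On the WT arrays it was -0.16 to 0.15. Of 18 measured macrophage markers 8 were called higher (44.4%, beside 0.871% of all genes) and 0 lower. The median deviations of macrophage markers were 1.47, 0.85 and 0.81 on the TFEB KO arrays. The part of these cells in the collagen values was not tested.

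Because TFEB KO array 1 was the highest for many of these genes, chains were also set against each other within an array. Such a difference compares 2 probe sets and leaves the direction of each to the values above. Col1a2 minus Col3a1 was 0.48, 0.34 and 0.79 on the WT arrays and -0.66, -0.43 and -0.50 on the TFEB KO arrays. The groups did not overlap, and the difference between them was -1.07 (p = 0.10 by a two-sided permutation test over all splits, where 3 against 3 arrays allow no smaller p). All 4 pairs of Col1a2 and Col3a1 probe sets gave no overlap, at -1.41 to -1.07. Col1a1 minus Col3a1 differed by -1.15 and Col1a2 minus Col5a2 by -1.16, each without overlap in all 4 probe set pairs. Col9a1 minus Col9a3 was 0.14, 0.22 and 0.49 in WT and -0.96, -0.82 and -0.68 in TFEB KO muscle, a difference of -1.10, without overlap in 5 of 6 probe set pairs. Col9a1 minus Col9a2 differed by -0.99, without overlap in 1 of 2 pairs, and Col11a2 minus Col2a1 by -0.51, with a single pair. Col4a2 minus Col4a1 differed by -0.38, without overlap in 1 of 2 pairs. These 7 contrasts were chosen after the values were seen. Each had an exact permutation p of 0.10, and of 0.10 after adjustment over the 7. Chosen in this way, they describe these arrays and are no test of unequal change.

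Promoter sequence is shown for 5 genes with a RefSeq entry. Col1a2 and Col3a1 are fibrillar partners with differences of opposite sign, neither past the test. Col9a1, Col11a1 and Col11a2 carry the lowest differences of the cartilage chains. Each line gives the 150 bases before the start site on the GRCm38.p6 assembly, 5′ to 3′ on the gene's strand, with a CCAAT box or its complement ATTGG in capitals. All lie on the plus strand, at chr6:4505468-4505617 for Col1a2, chr1:45311388-45311537 for Col3a1, chr1:24177460-24177609 and chr1:24195053-24195202 for the starts of Col9a1, chr3:114030390-114030539 for Col11a1 and chr17:34038988-34039137 for Col11a2.
Col1a2: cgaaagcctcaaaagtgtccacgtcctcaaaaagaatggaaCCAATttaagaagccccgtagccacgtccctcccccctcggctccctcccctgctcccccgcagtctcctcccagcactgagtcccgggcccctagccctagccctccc
Col3a1: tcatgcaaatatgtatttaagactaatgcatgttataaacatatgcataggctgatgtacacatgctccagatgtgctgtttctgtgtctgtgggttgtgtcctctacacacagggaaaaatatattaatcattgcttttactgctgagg
Col9a1, first start: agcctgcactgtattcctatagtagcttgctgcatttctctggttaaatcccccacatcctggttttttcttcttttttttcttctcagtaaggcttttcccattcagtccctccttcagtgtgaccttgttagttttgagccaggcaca
Col9a1, second start: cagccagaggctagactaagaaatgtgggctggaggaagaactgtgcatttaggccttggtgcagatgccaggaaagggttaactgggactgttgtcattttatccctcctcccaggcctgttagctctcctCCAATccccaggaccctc
Col11a1: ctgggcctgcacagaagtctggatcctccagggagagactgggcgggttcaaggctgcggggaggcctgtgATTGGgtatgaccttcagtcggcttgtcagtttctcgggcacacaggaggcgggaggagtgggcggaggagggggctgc
Col11a2: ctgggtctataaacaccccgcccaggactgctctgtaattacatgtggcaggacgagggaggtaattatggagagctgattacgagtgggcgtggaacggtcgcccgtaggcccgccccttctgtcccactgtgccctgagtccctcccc

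The box began 109 bases before the start in Col1a2, 18 bases before the second start of Col9a1 and, as ATTGG, 79 bases before the start of Col11a1. Over windows of 300 bases, from 250 before to 50 after the start, 30 windows of 27 members were held by RefSeq. CCAAT, on either strand, was in 12 of the 30, beside 37.4% of 32851 windows of all genes. CACGTG, the E-box at the core of the element that TFEB binds, was in 0 of the 30 member windows and in 7.15% of all windows. Its absence says only that these letters are not in these windows, and a match is a description of letters.

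Type IV collagen is the network of every basement membrane, and Col4a1 and Col4a2 encode the pair of chains found around muscle fibers and vessels. Their start sites lie 21 bases apart on opposite strands in RefSeq, so their promoter windows share 78 bases. Col4a1 read 9.97, 10.22 and 9.95 in WT and 10.33, 10.17 and 9.98 in TFEB KO muscle, with overlap and a difference of 0.11. Col4a2 read 9.59, 9.69 and 9.52 against 9.46, 9.27 and 9.27, without overlap, and its difference of -0.27 (95% interval -0.50 to -0.043) did not pass the test (limma adjusted p = 0.21). The dimmer probe set of Col4a1 differed by -0.092, so the sign for Col4a1 depended on the probe set. The other type IV chains, known from kidney, lens and other specialised membranes, were all dim and overlapped. Col4a5 read 5.49, 5.57 and 4.95 against 6.36, 5.44 and 5.53, the highest difference of the family at 0.44 (limma adjusted p = 0.44), and its dimmer probe set differed by -0.070. Col4a4 read 3.75, 3.83 and 3.90 against 4.19, 3.73 and 4.06, and Col4a6 read 4.99, 4.92 and 4.42 against 4.49, 4.81 and 4.26. Their differences were 0.17 and -0.26, and Col4a3, at 5.22, 4.93 and 4.84 against 5.08, 4.83 and 4.70, differed by -0.12.

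Basement membranes also surround vessels. Of 15 measured endothelial markers, 7 were called lower (46.7%, beside 0.702% of all genes), 8 did not pass and 0 were called higher. The median difference of these markers was -0.57, with median deviations of -0.71 to -0.45 on the TFEB KO arrays. Col15a1 and Col18a1 link basement membranes to the matrix around vessels and muscle fibers and end in fragments known to limit vessel growth. Col15a1 read 6.85, 7.31 and 6.98 against 7.17, 6.69 and 6.65, and Col18a1 read 6.98, 6.94 and 6.71 against 6.93, 6.76 and 6.39. Both overlapped, with differences of -0.21 and -0.19. Of 11 markers of smooth muscle and pericytes 2 were called lower (18.2%), as were 2 of 8 measured Schwann cell markers (25%). In either list 0 were called higher. The part of these cells in these values was not tested.

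The FACIT collagens beyond type IX bind the surface of type I fibrils or sit at junctions. Col12a1, found in tendon and muscle connective tissue, read 6.19, 6.00 and 5.98 in WT and 5.73, 5.51 and 5.53 in TFEB KO muscle. Every TFEB KO array was below every WT array, and the difference of -0.46 (SE 0.105, 95% interval -0.70 to -0.22) had a limma adjusted p of 0.074. Col14a1, its close relative, read 7.52, 7.06 and 7.16 against 8.12, 7.22 and 7.12, with overlap, a difference of 0.24 and its highest value on TFEB KO array 1. Col22a1, a collagen of the junction between muscle and tendon, read 7.78, 7.91 and 8.04 against 7.58, 7.99 and 7.99, with overlap and a difference of -0.056. Col16a1, a minor FACIT of many tissues, read 7.23, 7.26 and 6.95 against 7.13, 6.99 and 6.82, a difference of -0.17. Col19a1 and Col20a1 were dim, overlapped and differed by -0.099 and -0.19.

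Among the remaining collagens, Col13a1, a membrane collagen of the neuromuscular junction, read 4.40, 4.37 and 4.54 in WT and 3.82, 4.33 and 3.97 in TFEB KO muscle. Its groups did not overlap, and its difference of -0.40 did not pass the test (limma adjusted p = 0.19) and is from a dim probe set. Col7a1, the anchoring fibril of skin, read 7.44, 7.42 and 7.76 against 7.57, 7.33 and 7.53, with overlap and a difference of -0.066. Col8a1, a network collagen of vessel walls, read 6.25, 6.63 and 6.13 against 6.88, 6.57 and 6.23, with overlap and a difference of 0.22. Col17a1, a membrane collagen of epithelia, read 3.73, 3.51 and 3.54 against 3.55, 3.98 and 3.49, with overlap and a difference of 0.084. Col10a1 (growth plate cartilage), Col25a1 (a membrane collagen of nerve and developing muscle) and Col26a1 overlapped, at differences of -0.025, -0.072 and -0.11.

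Genes with several probe sets show how far these values depend on the probes. Of the 36 members, 17 had 1 probe set, 16 had 2 and 3 had 3. In 15 of the 19 genes with several, all probe sets had 1 sign, and the signs differed in Col4a1, Col4a5, Col5a3 and Col9a3.

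**Figure D4:**
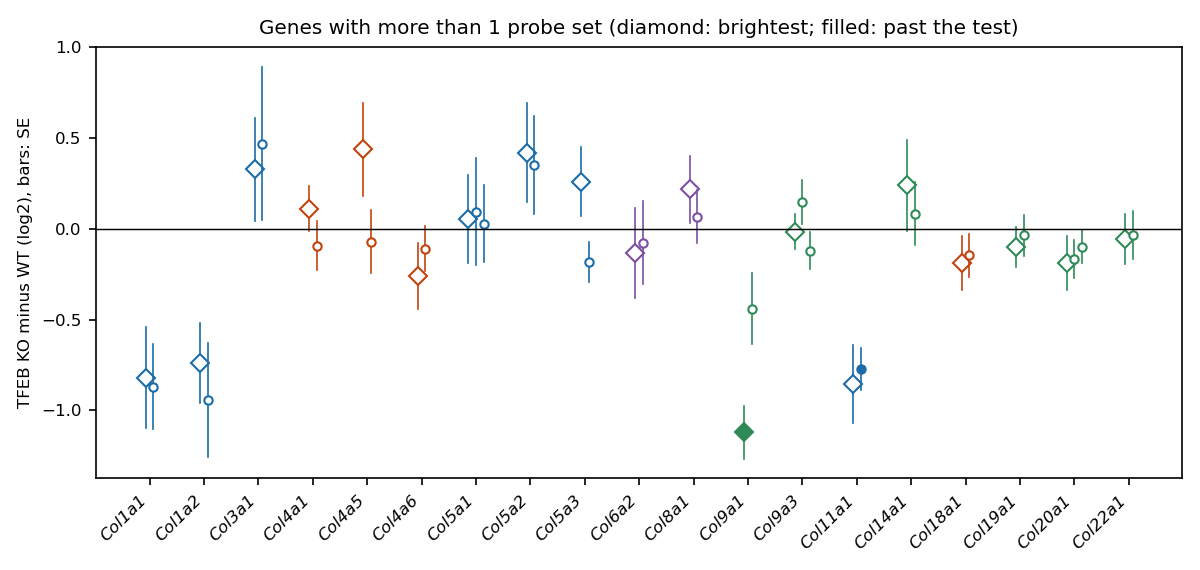
TFEB KO minus WT log2 difference of every probe set of the 19 collagen genes with several, with the brightest as a diamond, dimmer ones as circles, filled marks for those past the test and bars of 1 SE. In 15 genes the probe sets share a sign, and those of Col1a1 and Col1a2 lie between -0.94 and -0.74.

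Collagen chains are modified, folded, trimmed, cross-linked and taken up by other proteins. Of 46 such genes in 3 lists, 33 were measured, and limma called 0 lower and 0 higher. Over all genes 8.66% were lower and 8.49% higher at an unadjusted limma p under 0.05. The lists are too short for the counts below to be told from these shares. The 17 of 22 measured genes of folding and modification had a median difference of -0.026, with 2 higher and 0 lower at an unadjusted limma p under 0.05. These were P4ha1, a prolyl hydroxylase subunit at 0.27 (adjusted p = 0.29), and Plod2, a lysyl hydroxylase at 0.32 (adjusted p = 0.27). The 10 of 14 measured genes of processing and cross-linking had a median difference of 0.088, with 1 higher and 0 lower at that level. That gene was Lox, the enzyme that starts cross-links, at 8.02, 7.54 and 6.92 in WT and 7.89, 8.46 and 8.26 in TFEB KO muscle, with overlap and a difference of 0.72 (limma adjusted p = 0.21). The 6 of 10 measured receptors and uptake genes had a median difference of 0.15, with 1 higher and 0 lower at that level. That gene was Lair1, an inhibitory collagen receptor of leukocytes, at 0.34 (limma adjusted p = 0.13). The methods' t-test called 0 of the 33 after adjustment, and P4hb lower and Lair1 higher without it. Without TFEB KO 1, limma called Sparc, a chaperone-like protein that binds collagen, lower.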

How the data were processed

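Muscle RNA of 3 WT and 3 TFEB KO mice was hybridised to Affymetrix arrays, 1 per mouse. Per the labels, the deposited log2 values are RMA values that the authors computed with the package affy. RMA corrects background, quantile-normalises the arrays and summarises probes into 22690 probe sets. No source used here gives their versions. Quantile normalisation gives all arrays 1 distribution, so a shift of all genes together cannot be seen.

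The 64 Affymetrix control probe sets were removed. The other 22626 were fitted with limma 3.58.1 (R 4.3.3) on the 6 arrays without covariates, two-sided, with Benjamini-Hochberg adjustment over all of them and no minimum fold. Probe sets with 1 gene symbol in the annotation table numbered 20380, of which 20351 were matched to RefSeq by gene ID. The brightest probe set stood for a gene. Means are over 3 arrays per group. Depth does not apply to arrays. The fit was tested on simulated data with the 3 against 3 design over 22626 probe sets. Of log2 changes of 0.5 it recovered 16%, and of those of 1 it recovered 87.3%, with 6.2% of calls false. The simulated noise was independent between probe sets, so shifts that many genes share on an array were not part of it.

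Members, lists and tests were chosen with earlier results of these data known. Values per array were given for members past the test, for the 4 brightest and the 2 highest and 2 lowest differences of each class, and for the other chains of a type described. From pathway lists, genes past the test were named, or those with the smallest p. P4hb, Sparc, Chad, Kera, Cilp2, Prg4, Thbs4 and Scx were named after their values were seen. Alternatives were other scalings, filters, moderation, array weights, a replicate block, the Student t-test that the methods name and leaving out each array. Counting any probe set of a gene was chosen after seeing the data. Promoters came from RefSeq (GRCm38.p6). Protein sequences were not used here. Tables and figures were made with Python 3.11.15, pandas 2.3.3, NumPy 2.4.6, SciPy 1.17.1 and matplotlib 3.10.9.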

Additional observations from a re-analysis of the deposited data

How the results depend on the processing

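The count of collagen genes called lower was 2, and 0 were called higher under every setting run. The lower count was 1 with probe sets under 6 left out, which removes Col11a2 and keeps Col9a1 only through its WT arrays, so that this count is no support for Col9a1, 0 under the methods' t-test with adjustment and 6 without it, 3 with array weights, with the mean of all probe sets or with any probe set of a gene, each of which adds Col11a1, and 0 to 4 with 1 array left out. Over all probe sets limma called 191 lower and 170 higher. The lower count was 127 with a 1.5-fold minimum, 296 with array weights, 1 under the methods' t-test with adjustment and 1944 without it. The higher count was 0 and 1338 under the adjusted and unadjusted methods' t-test. With 1 array left out these counts were 4 to 203 lower, with the fewest without WT 1, and 17 to 235 higher, again with the fewest without WT 1. Of the pathway genes, 0 were called, but 1 lower (P4hb) and 1 higher (Lair1) under the unadjusted methods' t-test, and 0 to 1 lower with 1 array left out (Sparc). The median difference of the collagens was -0.11 and ran from -0.19 to -0.038 over all settings. The replicate block called 124 probe sets lower and 173 higher, and 2 collagen genes lower. Deviations of same-numbered arrays correlated at 0.088, 0.048 and 0.27, and those of differently numbered arrays at -0.25 to 0.17. WT 2 and WT 3 correlated best with the array of their own number, and WT 1 with TFEB KO 2 (0.17). These correlations do not settle whether the numbers are pairs. The labels give replicate numbers only, and the main fit took no pairs. The sign held in 24 of 36 members under every setting. No member whose sign changed had passed the test. With array weights Col5a1 was -0.085, Col9a3 0.015, Col10a1 0.0023 and Col22a1 0.00041, with the mean of probe sets Col9a3 was 0.0043, and with a second quantile normalization Col9a3 was 0.0036 and Col10a1 0.0037. With 1 array left out the sign changed in Col3a1 (-0.020 to 0.50), Col5a1 (-0.21 to 0.23), Col6a1 (-0.41 to 0.082), Col6a2 (-0.45 to 0.056), Col6a3 (-0.44 to 0.075), Col7a1 (-0.13 to 0.044), Col9a3 (-0.076 to 0.021), Col10a1 (-0.16 to 0.099), Col14a1 (-0.076 to 0.42), Col17a1 (-0.069 to 0.18), Col22a1 (-0.12 to 0.082) and Col25a1 (-0.16 to 0.077). The cause of these changes was not tested. Probe sets near background limit what can be seen of the 15 dim collagens.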
